A study of Mus musculus with 24 samples.

Results

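The 10 genes described here belong to the tumor necrosis factor (TNF) superfamily and its receptors, and were taken by symbol from the 54658 gene symbols of each count table. They comprised 6 ligands (Tnf, Tnfsf15, Tnfsf9, Tnfsf10, Tnfsf13b and Fasl) and 4 receptors (Tnfrsf1a, Tnfrsf1b, Fas and Tnfrsf9). All animals were male C57BL/6 mice of 7 to 12 weeks. They were given β-nicotinamide mononucleotide (β-NMN, an NAD+ precursor) at 185 mg/kg per dose or saline (vehicle) by intraperitoneal injection, with the last dose 24 h before harvest. In the TGC model, sterile peritonitis was raised with thioglycollate, and unsorted peritoneal lavage cells of 6 vehicle and 6 β-NMN mice were stimulated in culture with E. coli for 6 h. Per the paper, these mice were injected once daily for 3 days. In the CLP model (cecal ligation and puncture, a polymicrobial sepsis), heart and lung were taken from the same 3 vehicle and 3 β-NMN mice. The paper states that these organs were collected 24 h after surgery, following a single administration, so exposure differed between the models. The series held 24 libraries, none from unstimulated cells and none from sham-operated mice among those analysed here, so each comparison set β-NMN against vehicle within an inflamed state. The source labels of the organs name thioglycollate, whereas their titles and tissue labels give CLP.

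TNF superfamily ligands are mostly membrane proteins that act as trimers and bind receptors on neighboring cells, some after shedding. The receptors recruit TRAF adaptors that activate NF-κB and MAP kinases, or, where they carry a death domain, can start apoptosis through FADD and caspase-8. In bacterial peritonitis, macrophages are a main source of TNF, which drives cytokine release, endothelial activation and neutrophil recruitment. TNFR1 (Tnfrsf1a) is found on most cell types, whereas TNFR2 (Tnfrsf1b) is found mainly on immune and endothelial cells.

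Total counts ranged from 31126823 to 112456050 in peritoneal libraries, from 27319513 to 68523239 in hearts and from 8915366 to 28356786 in lungs. The shallowest library, the lung of vehicle replicate 2, also stood apart from its group: the SD of its log2 difference from the other replicates was 1.47, against 0.48 to 0.85 in the other lungs. The heart of the same mouse stood apart too (0.90, against 0.45 to 0.61 in the other hearts). Macrophage markers were abundant in the peritoneal cells (Lyz2, 4340 CPM in vehicle and 7752 in β-NMN). Cardiomyocyte markers summed to 28698 to 53752 CPM in hearts and lung epithelial markers to 58969 to 104439 CPM in lungs. Levels are given as CPM (reads scaled to the TMM-adjusted library total), or as RPKM (CPM per kilobase of exon) where genes are compared. Unless stated, scaling was done within each tissue, so CPM are comparable for a gene between mice of that tissue.

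Tnf lies on chromosome 17 (35199381 to 35202007, minus strand, 4 exons), and Tnfsf15 on chromosome 4 (63727084 to 63745113, minus strand, 4 exons). Tnfrsf1b (145213463 to 145246870, minus strand) and Tnfrsf9 (150914562 to 150946102, plus strand) are also on chromosome 4. Fasl is on chromosome 1 (161780689 to 161788495), Tnfsf10 on chromosome 3 (27317028 to 27342427), Tnfrsf1a on chromosome 6 (125349362 to 125362484), Tnfsf13b on chromosome 8 (10006467 to 10039072), Tnfsf9 on chromosome 17 (57105325 to 57107757) and Fas on chromosome 19 (34290666 to 34327772). Coordinates follow GENCODE M21 on GRCm38, the assembly also called mm10. The gene models of Tnfsf9, Tnfsf13b and Tnfrsf9 overlap another gene on the opposite strand (Gm11110, Gm44789 and Camta1) and Fas overlaps Gm27818 on the same strand. These are overlaps of whole gene spans, introns included, and shared exon bases were not looked for. No source used here states the strand setting of the counting, so whether reads of such pairs were mixed is not known.

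Promoter sequences of the genes are shown because 7 of the 10 fell together and 2 rose in peritoneal cells. RefSeq promoters on GRCm38.p6, each a window around a start site that is mostly upstream, were found for 9 of the 10 genes (11 promoters). Both strands were searched for 5 motifs. A κB match was present at 8.46% of all 32851 promoters and, among these genes, at Tnfrsf9, where overlapping κB matches and an AP-1 match stood upstream of a start site. The TATA box, TATAAA, held by 13.6% of all promoters, was matched at Tnf, 29 bases before the start. The AP-1 letters TGANTCA, at 7.81% of promoters, were matched at Tnfrsf9, Tnfsf13b and Fas. The ISRE core, GAAANNGAA, was matched at Tnfrsf1b and Tnfsf13b and at 8.56% of promoters. The CRE letters TGACGTCA, at 1.79% of promoters, were in none of these windows. Such a match describes letters and not a bound site. Sites outside these windows or with other letters were not looked for, so a missing match does not show a missing site. Motif letters are in capitals, 5′ to 3′ along the gene's strand, for Tnf (chr17:35201958-35202257, minus strand), Tnfrsf9 (chr4:150927749-150928048, plus strand) and Tnfsf13b (chr8:10006383-10006682, plus strand), a gene that fell moderately, one that fell strongly and one that rose.
Tnf: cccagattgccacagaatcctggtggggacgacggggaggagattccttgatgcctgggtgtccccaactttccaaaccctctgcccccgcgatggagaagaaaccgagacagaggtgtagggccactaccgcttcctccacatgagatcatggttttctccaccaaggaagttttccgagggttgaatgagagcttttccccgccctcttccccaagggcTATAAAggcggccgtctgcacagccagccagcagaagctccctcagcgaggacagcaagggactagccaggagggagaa
Tnfrsf9: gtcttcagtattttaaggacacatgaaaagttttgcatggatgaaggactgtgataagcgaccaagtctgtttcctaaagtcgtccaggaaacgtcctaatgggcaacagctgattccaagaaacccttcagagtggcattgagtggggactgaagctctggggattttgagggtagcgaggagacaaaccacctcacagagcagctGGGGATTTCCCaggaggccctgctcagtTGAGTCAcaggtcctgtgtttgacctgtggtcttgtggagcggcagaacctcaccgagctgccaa
Tnfsf13b: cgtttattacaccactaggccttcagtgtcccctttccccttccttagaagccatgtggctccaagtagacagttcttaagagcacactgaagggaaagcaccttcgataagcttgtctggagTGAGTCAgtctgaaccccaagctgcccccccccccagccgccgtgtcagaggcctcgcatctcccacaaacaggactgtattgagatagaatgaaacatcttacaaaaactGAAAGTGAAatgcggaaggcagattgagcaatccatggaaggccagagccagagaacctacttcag

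In stimulated peritoneal cells, β-NMN was accompanied by lower transcripts of Tnf, Tnfsf15, Tnfsf9, Fasl, Tnfrsf1b, Fas and Tnfrsf9 and by higher transcripts of Tnfsf10 and Tnfsf13b, whereas Tnfrsf1a did not pass the test. Over all mice, Fasl, Tnfsf15 and Tnfrsf9 fell most, by 7.32-, 5.10- and 4.93-fold. By edgeR's quasi-likelihood test with Benjamini-Hochberg adjustment, 7 of the 10 genes were lower and 2 higher at an adjusted p below 0.05. Over the 14985 genes tested, 27.9% were lower and 23.7% higher by the same rule. The groups did not overlap for 4 lower and 2 higher genes, a pattern seen for 14% and 12.6% of all genes.

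**Figure D1:**
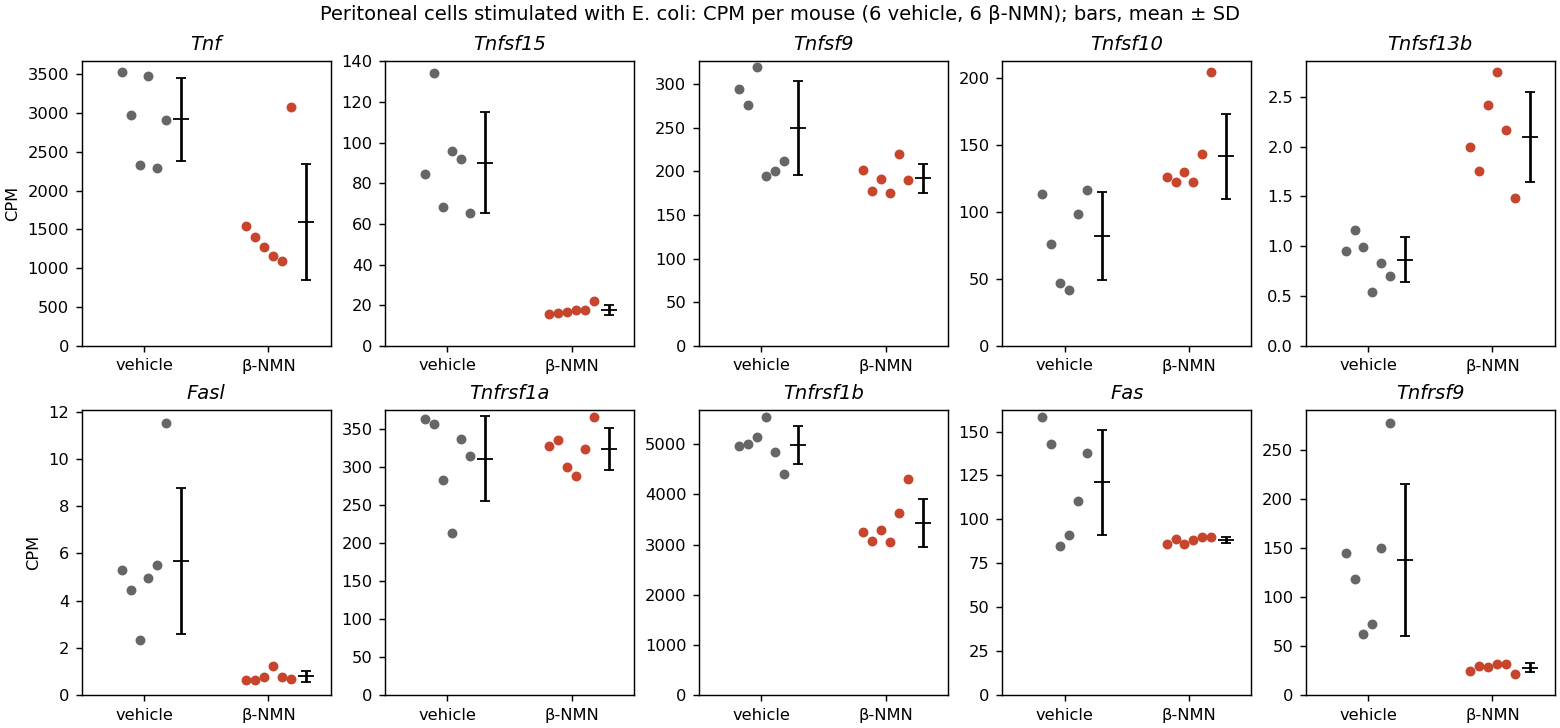
CPM of each gene in stimulated peritoneal cells, 1 point per mouse (6 vehicle, gray, and 6 β-NMN, red), with mean and SD at the right of each group and axes starting at 0. Tnfsf15, Fasl, Tnfrsf1b and Tnfrsf9 of all β-NMN mice lie below those of all vehicle mice, Tnfsf10 and Tnfsf13b lie above, and 1 β-NMN mouse carries Tnf at 3077 CPM.

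Among ligands, Tnf, the archetypal macrophage cytokine, ranged from 2288 to 3532 CPM in vehicle mice (median 2939) and from 1094 to 3077 CPM in β-NMN mice (median 1339). The other 5 β-NMN mice lay below every vehicle mouse, and replicate 6 lay within the vehicle range. The means were 2916 ± 536 and 1592 ± 746 CPM (SD, n = 6 each), a log2 fold change of -0.87 ± 0.23 (SE) with an edgeR adjusted p of 0.00505. The exact two-sided permutation test gave p = 0.0108, where 6 mice against 6 cannot go below 0.00216. Without replicate 6, the log2 fold change was -1.14.

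Tnfsf15 encodes TL1A, a ligand that costimulates T cells through DR3. Its level ranged from 65.4 to 134 CPM in vehicle mice (median 88.3) and from 15.9 to 22.2 CPM in β-NMN mice (median 17.01). The groups were far apart, and the log2 fold change was -2.35 ± 0.16 with an edgeR adjusted p of 5.5e-08. Its receptor DR3, Tnfrsf25, was scarce and also lower, at 0.852 CPM in β-NMN and 2.03 CPM in vehicle mice (log2 fold change -1.23, edgeR adjusted p = 0.0111).

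Fasl encodes the Fas ligand, a death-inducing protein best known from cytotoxic T and NK cells. It ranged from 2.33 to 11.5 CPM in vehicle mice (median 5.13) and from 0.636 to 1.23 CPM in β-NMN mice (median 0.720). Even the lowest vehicle mouse exceeded the highest β-NMN mouse, with a log2 fold change of -2.87 ± 0.32 and an edgeR adjusted p of 4.9e-06. NK cell markers moved with it: all 5 were lower, and their summed level was 40.7 to 217 CPM in vehicle and 13.7 to 34.5 CPM in β-NMN mice. Of 6 T cell markers, 5 were lower (Cd3e, 0.992 CPM in vehicle and 0.380 CPM in β-NMN) and Lck was higher. The T cell sum, mostly Lck, did not fall: it was 26.7 to 57.5 CPM in vehicle (median 36.8) and 41.7 to 59.9 CPM in β-NMN mice (median 49.6). The part of these cells in the result was not tested, and in bulk samples fewer cells of a type and less RNA per cell cannot be told apart.

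Tnfsf9, the 4-1BB ligand, changed least among the genes called. It ranged from 195 to 319 CPM in vehicle mice (median 244) and from 175 to 220 CPM in β-NMN mice (median 190). The ranges overlapped, and the log2 fold change was -0.38 ± 0.13 with an edgeR adjusted p of 0.0221. This call was lost on leaving out vehicle replicate 1 or 3 or β-NMN replicate 3, 4 or 6 (adjusted p from 0.0537 to 0.0877) and without the low-count filter (0.0567).

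A pair of ligands rose. Tnfsf10 encodes TRAIL, an interferon-inducible death ligand. It ranged from 41.5 to 116 CPM in vehicle mice (median 87.4) and from 122 to 205 CPM in β-NMN mice (median 128). Every β-NMN mouse was above every vehicle mouse, with a log2 fold change of 0.78 ± 0.24 and an edgeR adjusted p of 0.0126. Its death receptor, Tnfrsf10b, went the other way, at 0.770 CPM in β-NMN and 2.65 CPM in vehicle mice (log2 fold change -1.79, edgeR adjusted p = 8.8e-05).

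Tnfsf13b encodes BAFF, a B cell survival factor. It ranged from 0.545 to 1.17 CPM in vehicle mice (median 0.894; 28 to 93 reads) and from 1.49 to 2.75 CPM in β-NMN mice (median 2.08; 64 to 182 reads). The groups did not overlap, and the log2 fold change was 1.29 ± 0.21 with an edgeR adjusted p of 0.000166, at low levels throughout. A pair of its receptors were lower, Tnfrsf13c at 9.45 CPM in β-NMN against 33.3 CPM in vehicle (log2 fold change -1.81) and Tnfrsf13b at 19.6 against 27.1 CPM (-0.47), with edgeR adjusted p of 1.4e-05 and 0.00243. B cell markers were lower for 3 of 5 genes, and their summed level overlapped (37.1 to 189 CPM in vehicle and 25.9 to 92.3 CPM in β-NMN).

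Among receptors, Tnfrsf1b was abundant, from 4412 to 5549 CPM in vehicle mice (median 4986) and from 3043 to 4311 CPM in β-NMN mice (median 3263). The groups did not overlap, and the log2 fold change was -0.54 ± 0.11 with an edgeR adjusted p of 0.000626. Tnfrsf1a ranged from 213 to 363 CPM in vehicle mice (median 325) and from 288 to 366 CPM in β-NMN mice (median 325). Its log2 fold change was 0.06 ± 0.12 (edgeR adjusted p = 0.718), and its sign turned with limma-voom (-0.06) and among the libraries below 70 M reads (-0.04). The change of Tnfrsf1b was not tested against that of Tnfrsf1a.

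Fas, the death receptor for Fasl, varied widely in vehicle mice, from 84.7 to 158 CPM (median 124), and little in β-NMN mice, from 86.1 to 90.2 CPM (median 88.5). All β-NMN values fell inside the vehicle range, near its lower end. The log2 fold change was -0.45 ± 0.14 with an edgeR adjusted p of 0.0115.

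Tnfrsf9 encodes 4-1BB, an activation-induced costimulatory receptor bound by Tnfsf9. It ranged from 61.7 to 277 CPM in vehicle mice (median 131) and from 21.3 to 32.0 CPM in β-NMN mice (median 29.0). No values overlapped, and the log2 fold change was -2.30 ± 0.30 with an edgeR adjusted p of 1.7e-05. Thus the receptor and its ligand were both lower, the ligand by a smaller log2 fold change.

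Sequencing depth was uneven between the groups: 3 vehicle and 2 β-NMN libraries exceeded 70 M reads, and 3 vehicle and 4 β-NMN libraries lay below. Within the deeper libraries 6 of the 10 genes were called, beside 30.5% of all genes tested there, and within the shallower libraries 7 were called, beside 27.9%. Tnfsf15, Tnfsf13b, Fasl, Tnfrsf1b and Tnfrsf9 were called in each class. Of these, Fasl had a log2 fold change of -3.46 among deeper and -2.18 among shallower libraries, and Tnfsf15 at -2.33 and -2.35. Tnf was called among deeper libraries (log2 fold change -0.90) and not among shallower ones (-0.81, edgeR adjusted p = 0.104), and Fas was called in neither class (-0.31 and -0.51). Tnfsf10 was called among shallower libraries (0.95) and not among deeper ones (0.61). Likewise Tnfsf9 was called among shallower libraries (-0.59) and was at -0.03 among deeper ones. The summed macrophage markers, mostly Lyz2, went from 5620 to 8547 CPM in vehicle to 10570 to 12138 CPM in β-NMN mice (3 of 7 genes higher, 4 not called), while dendritic cell markers were lower in 4 of 5 genes (170 to 208 against 38.3 to 52.4 CPM). Neutrophil markers were lower in 5 of 7 genes (491 to 998 against 334 to 467 CPM). Mesothelial and fibroblast markers were lower in 5 of 6 genes (75.1 to 816 against 17.8 to 65.8 CPM). Resident peritoneal macrophage markers were higher in 3 and lower in 3 of 6 genes, with overlapping sums (31.5 to 46.6 against 38.7 to 115 CPM). Their part in the results was not tested.

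Other family members were described by counts, to be read beside the 27.9% of all genes that were lower and the 23.7% that were higher. Of 11 other ligands tested, 7 were lower and 3 higher, with a median log2 fold change of -1.02 against -0.02 over all genes. Tnfsf12 (TWEAK) was higher (9.72 to 27.7 CPM, log2 fold change 1.51), whereas Tnfsf14 (LIGHT, 31.1 to 8.93 CPM, -1.80), Cd70 (3.05 to 0.759 CPM, -2.03) and Tnfsf11 (RANKL, 0.576 to 0.0394 CPM, -4.03) were lower. Of 21 other receptors, 13 were lower and 4 higher (median -0.96). Tnfrsf18 (GITR, 9.28 to 1.10 CPM, -3.05), Tnfrsf4 (OX40, 2.78 to 0.535 CPM, -2.36) and Tnfrsf8 (CD30, 40.8 to 16.96 CPM, -1.27) were lower.

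**Figure D2:**
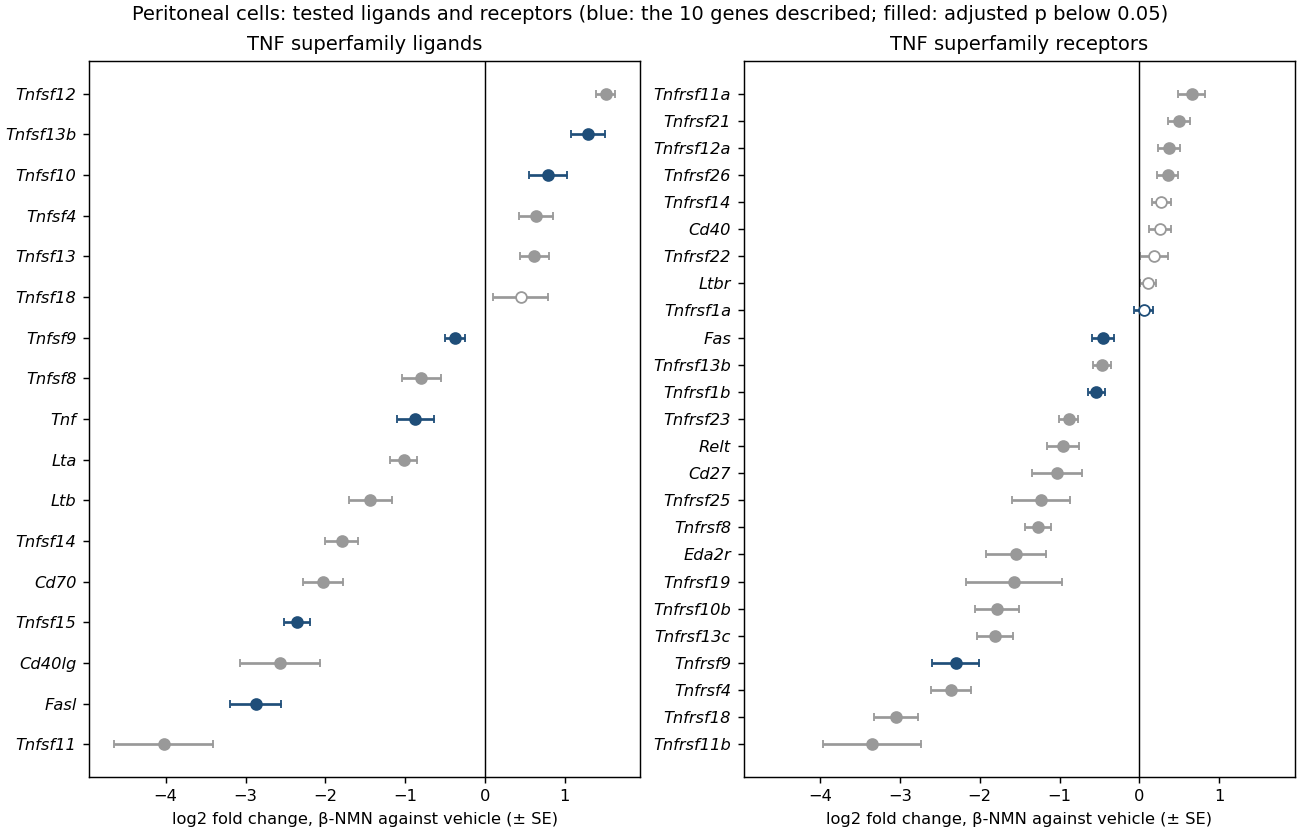
Log2 fold change (β-NMN against vehicle, ± SE) of the tested TNF superfamily ligands and receptors in peritoneal cells, with the 10 genes described in blue and the other members in gray. Filled points passed an adjusted p below 0.05. Most lie left of 0. Tnfsf12, Tnfsf13b and Tnfsf10 lie farthest to the right, and 4 of the other ligands (Tnfsf12 included) and 8 of the other receptors have positive values.

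Of 30 adaptors and regulators of signaling, 12 were lower, 3 were higher and 15 did not pass the test (median log2 fold change -0.14), a share of calls near that over all genes (51.6%). The lower genes included the TRAFs Traf1 (943 to 362 CPM, -1.38) and Traf3 (140 to 54.1 CPM, -1.37), the non-canonical NF-κB kinase Map3k14 (24.3 to 9.15 CPM, -1.41) and the A20 partner Tnip1 (858 to 485 CPM, -0.82). The counts of the next 2 lists are likewise to be read beside the 27.9% of all genes that were lower and the 23.7% that were higher. Among 11 genes of Tnf mRNA control and shedding, 7 were lower and 1 higher (median -0.55). Zc3h12a, an RNase that degrades inflammatory mRNAs, fell from 329 to 112 CPM (-1.55), and the decay factor Zfp36l1 fell from 54.0 to 13.6 CPM (-1.99). Mapkapk2 (-0.55) and Map3k8 (-0.84), kinases of TNF production, were lower too. Of 14 TNF-inducible genes, 13 were lower and none higher (median -0.84), for example Il6 (257 to 86.5 CPM, -1.57), Tnfaip6 (6.13 to 1.02 CPM, -2.61), Ier3 (523 to 228 CPM, -1.20) and Sod2 (1200 to 703 CPM, -0.77). These genes are also known to respond to bacterial products directly.

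Likeness of pattern was measured as Pearson r over the 12 peritoneal libraries after removing each group's mean, and the highest r among 6831 genes are given. The genes most like Tnf were Tdg (0.94), Mob3c (0.93) and Nfkb1 (0.92). For Tnf, β-NMN replicate 6 stood far from its group (3077 CPM, the next at 1541), so these r values lean on that mouse. Tnfsf10 was most like Ifit2 (0.99), Ifi208 (0.98) and Ikzf1 (0.98). The nearest genes were Zbtb32 (0.97) for Tnfrsf9, Ripk1 (0.95) for Fas, Atr (0.96) for Fasl, Scamp1 (0.92) for Tnfsf15, Vapa (0.93) for Tnfsf9, Klhdc10 (0.90) for Tnfsf13b, Tmem106a (0.97) for Tnfrsf1a and Cwc25 (0.96) for Tnfrsf1b. These are descriptions of shared libraries and carry no test.

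Levels per exon length differed in order between the tissues. In vehicle peritoneal cells, Tnf (1779 RPKM) and Tnfrsf1b (1306 RPKM) led, with overlapping ranges, followed by Tnfsf9 (193 RPKM), Tnfrsf1a (120 RPKM), Fas (58.7 RPKM), Tnfrsf9 (50.4 RPKM), Tnfsf15 (26.9 RPKM), Tnfsf10 (15.6 RPKM), Fasl (2.93 RPKM) and Tnfsf13b (0.126 RPKM). Ranges of neighbors also overlapped from Fas to Tnfsf10. In vehicle hearts and lungs, Tnfrsf1a was highest (62.7 and 67.5 RPKM), then Fas (14.6 and 38.3 RPKM), Tnfrsf1b (8.16 and 16.7 RPKM) and Tnfsf10 (2.45 and 5.43 RPKM), while Tnf was at 0.891 and 1.51 RPKM. The ranges of Tnfrsf1a and Fas overlapped in vehicle lungs, and Tnfsf10 overlapped the gene next below it, Tnfsf9, in both organs. Fasl was lowest in lungs (0.0950 RPKM), and Fasl and Tnfsf15 were the 2 lowest in hearts, with overlapping ranges.

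**Figure D3:**
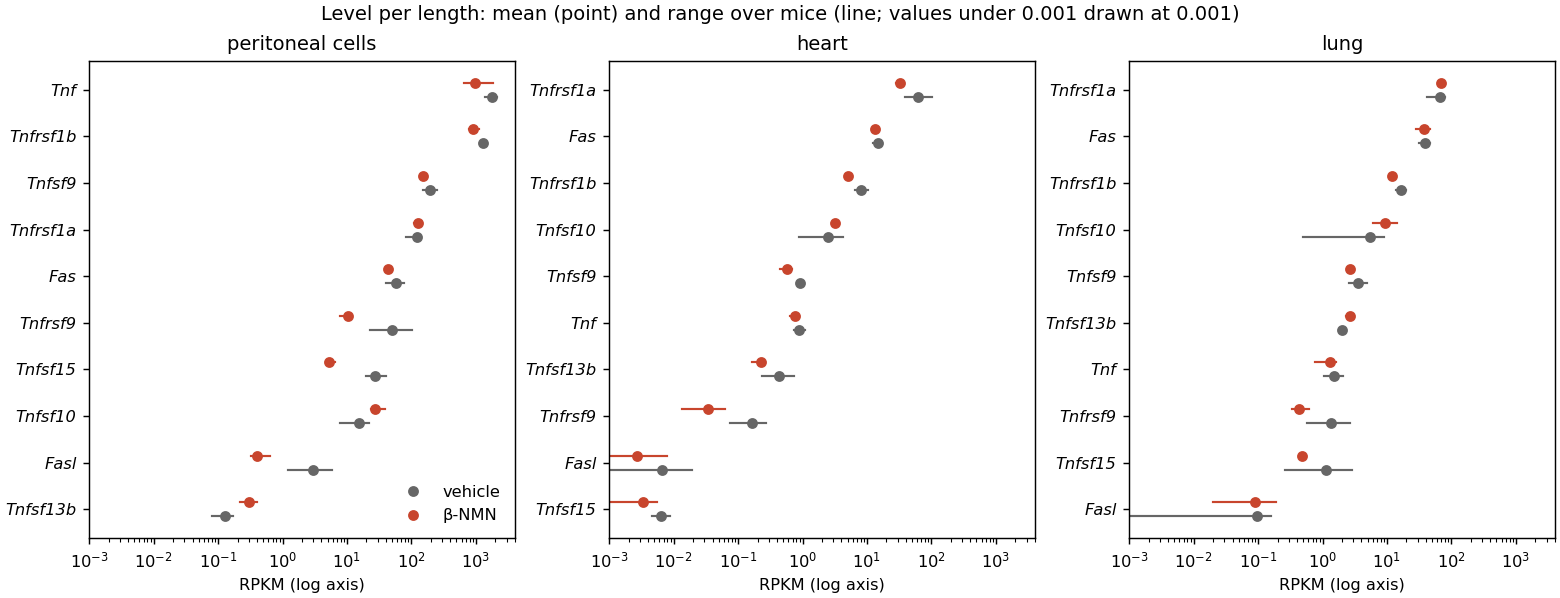
RPKM on a log axis for the 10 genes in peritoneal cells, hearts and lungs, ordered by the vehicle mean, with the mean (point) and the range over mice (line) in vehicle (gray) and β-NMN (red). By the vehicle means, Tnf leads in peritoneal cells at 1779 RPKM, with a range that overlaps that of Tnfrsf1b, and Tnfrsf1a leads in hearts and lungs.

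In hearts after CLP, no gene of the 10 passed edgeR's test with β-NMN, although the receptors Tnfrsf1a and Tnfrsf1b and the 4-1BB pair lay below all vehicle hearts. edgeR called 0 of the 7 genes that passed the low-count filter, as it called 0% of 16245 genes, of which 1837 had an unadjusted p below 0.05. DESeq2 called 262 heart genes and limma-voom 3, none of them among the 10. Tnfsf15 (0 or 1 read), Fasl (0 to 2 reads) and Tnfrsf9 were too scarce for the test. An exact permutation test of 3 against 3 cannot go below p = 0.1.

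Tnfrsf1a was at 126, 261 and 101 CPM in the vehicle hearts and at 85.0, 73.6 and 92.8 CPM in the β-NMN hearts. All β-NMN hearts were lower, with vehicle replicate 2 far above the others, and the log2 fold change was -0.96 ± 0.35 (edgeR adjusted p = 0.435). Without that replicate it was -0.44. Tnfrsf1b was at 25.0, 39.3 and 29.2 CPM in vehicle and at 19.8, 19.8 and 18.9 CPM in β-NMN hearts. Again no values overlapped, with a log2 fold change of -0.67 ± 0.18 (edgeR adjusted p = 0.435).

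Tnfsf9 was at 1.28, 1.17 and 1.11 CPM in vehicle and at 0.745, 0.573 and 0.899 CPM in β-NMN hearts, a log2 fold change of -0.68 ± 0.28 (edgeR adjusted p = 0.435). Tnfrsf9, untested, had 27, 39 and 7 reads in vehicle and 1, 4 and 11 reads in β-NMN hearts, or 0.415, 0.734 and 0.204 against 0.0372, 0.0739 and 0.171 CPM. Among the 7 genes tested, 3 were thus lower without overlap, as were 11.5% of tested heart genes, while 11.6% were higher without overlap and none of the 7 was.

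Tnf itself was near 1 CPM, at 1.21, 1.39 and 1.78 CPM in vehicle and 1.04, 1.26 and 1.46 CPM in β-NMN hearts, which overlapped (log2 fold change -0.21 ± 0.27). Fas overlapped as well, at 31.6, 25.3 and 33.3 CPM against 30.7, 24.8 and 25.8 CPM (-0.15 ± 0.15, and -0.27 without vehicle replicate 2). Tnfsf10 was at 12.1, 4.68 and 22.0 CPM against 14.9, 16.1 and 18.7 CPM (0.37 ± 0.49), and Tnfsf13b at 1.60, 5.02 and 2.12 CPM against 1.82, 1.72 and 1.15 CPM (-0.91 ± 0.47). Vehicle replicate 2 was the lowest heart for Tnfsf10 and the highest for Tnfsf13b, and without it the log2 fold changes were -0.04 and -0.26.

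Fold changes of the 14 TNF-inducible genes were all negative in hearts (median -1.15, and -0.89 without vehicle replicate 2), with 13 negative under some alternatives. Of them edgeR called 0, with 12 at an unadjusted p below 0.05, and limma-voom called 0. DESeq2 called 8, all lower, beside 1.61% of all heart genes, where most calls were also lower (38 of 262 were higher). The 8 were the chemokines Ccl2, Cxcl1 and Cxcl2, the adhesion molecules Icam1, Vcam1 and Sele, and Il6 and Tnfaip6. Tnfaip6 had the smallest p (8.28 CPM in vehicle against 2.05 CPM in β-NMN, log2 fold change -2.002, edgeR adjusted p = 0.435). Of the remaining lists in hearts, edgeR called 0 genes, and DESeq2 called Tnfaip3 and Tnfsf11. The smallest p of each list belonged to Tnfaip3 (22.1 against 8.26 CPM), Tnfsf11 (1.18 against 0.0558 CPM), Ltbr (55.2 against 40.3 CPM) and Zfp36 (93.4 against 51.7 CPM). Among partner receptors, Tnfrsf25 was at 2.17 CPM in vehicle against 4.30 CPM in β-NMN hearts, Tnfrsf10b at 4.64 against 3.01 CPM and Tnfrsf13b at 0.911 against 0.960 CPM, none called. Cardiomyocyte markers summed to 28698 to 46875 CPM in vehicle and 49444 to 53752 CPM in β-NMN hearts. Neutrophil markers summed to 20.97 to 36.1 CPM against 13.9 to 15.4 CPM, lower without overlap, with negative fold changes for 6 of 6 genes tested. Fibroblast and mesothelial markers were also negative for 6 of 6 genes, with overlapping sums (912 to 1904 against 758 to 1068 CPM), and 0 of these markers were called. The part of these cells in the heart values was not tested.

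In lungs, again 0 of the 9 genes tested were called, as were 0% of 17008 genes, with 301 at an unadjusted p below 0.05. DESeq2 called 9 lung genes and limma-voom 7, none of them among the 10. Tnfrsf1b was at 52.3, 64.9 and 74.2 CPM in vehicle and at 45.3, 48.1 and 45.5 CPM in β-NMN lungs, without overlap (log2 fold change -0.46 ± 0.22, edgeR adjusted p = 0.969). Tnfsf13b was at 15.3, 13.0 and 12.3 CPM in vehicle and 20.5, 18.2 and 15.8 CPM in β-NMN lungs, also without overlap and higher (0.42 ± 0.23, edgeR adjusted p = 0.969). They were the only genes of the 10 without overlap, a pattern of 3.75% of lung genes lower and 4.47% higher. Some marker sums also separated in lungs: macrophage markers, mostly Lyz2, were at 1342 to 4293 CPM in vehicle and 5002 to 5477 CPM in β-NMN mice. Sums of the lists for resident peritoneal macrophages (522 to 542 against 324 to 431 CPM), mesothelium and fibroblasts (1053 to 1493 against 842 to 1034 CPM) and cardiomyocytes (227 to 310 against 64.5 to 224 CPM) were below vehicle. The sum of the resident macrophage list rested mostly on Lrg1 (means of 379 CPM in vehicle and 220 CPM in β-NMN lungs). Single markers went both ways, with positive fold changes for 4 of 7 macrophage, 3 of 6 resident macrophage, 2 of 6 mesothelial and fibroblast and 1 of 4 cardiomyocyte genes tested. None of these marker genes was called, and their part in the lung values was not tested.

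**Figure D4:**
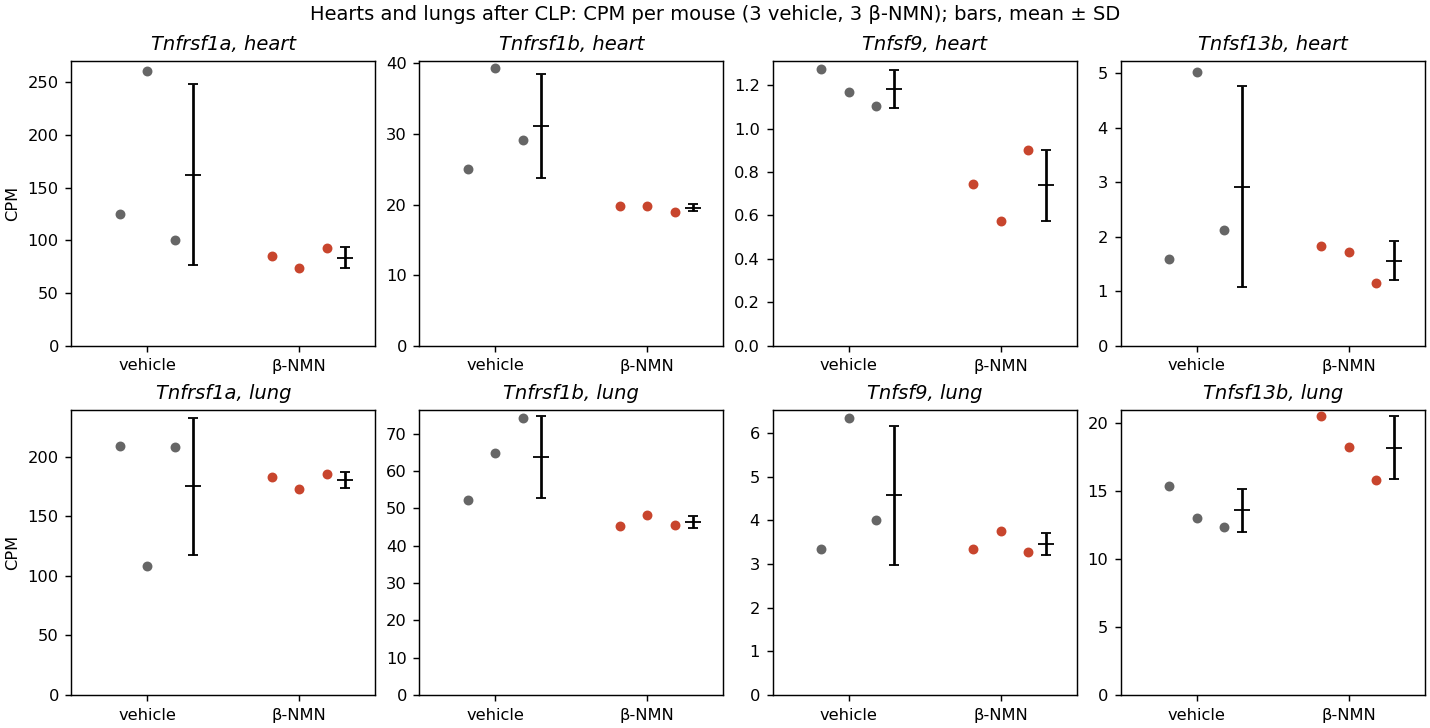
CPM of Tnfrsf1a, Tnfrsf1b, Tnfsf9 and Tnfsf13b per mouse in hearts (upper row) and lungs (lower row) after CLP, 3 vehicle (gray) and 3 β-NMN mice (red), with mean and SD. Tnfrsf1b of the β-NMN mice lies below that of vehicle mice in each organ, and no change passed the test.

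The shallow lung of vehicle replicate 2 set several values. For Tnfsf15 the vehicle lungs were at 1.05, 9.53 and 0.870 CPM and the β-NMN lungs at 1.83, 1.59 and 1.47 CPM, so the log2 fold change was -1.17 with and 0.75 without that library. For Tnfrsf9 the vehicle lungs were at 2.29, 7.22 and 1.57 CPM and the β-NMN lungs at 0.975, 0.928 and 1.65 CPM (-1.59 with it and -0.70 without). Tnfsf10 was at 47.2, 2.60 and 36.0 CPM in vehicle and 31.9, 74.6 and 39.7 CPM in β-NMN lungs (0.76 ± 0.85, and 0.23 without that library).

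Tnfrsf1a was at 208, 108 and 208 CPM against 183, 173 and 186 CPM in lungs (0.04 ± 0.31, and -0.21 without that library). Tnf was at 2.29, 1.73 and 3.40 CPM against 2.62, 1.24 and 2.64 CPM (-0.21 ± 0.47, and -0.39 without it). Tnfsf9 was at 3.34, 6.36 and 4.02 CPM against 3.35, 3.75 and 3.26 CPM (-0.39 ± 0.37, and -0.09 without it). These ranges overlapped, as did those of Fas (64.9 to 96.4 CPM against 58.9 to 95.2 CPM, log2 fold change -0.0082, and -0.037 without it) and of Fasl, which had 0 to 10 reads and was not tested. Of the wider lists 0 genes were called, the smallest p being those of Tnfaip2 (68.6 CPM in vehicle against 38.7 CPM in β-NMN), Birc3 (83.2 against 58.4 CPM), Ltb (18.7 against 9.50 CPM), Tnfrsf13c (0.275 against 0.931 CPM) and Rhbdf2 (75.1 against 54.2 CPM), and the median log2 fold change over TNF-inducible genes was -0.57. Among partner receptors, Tnfrsf25 was at 3.40 CPM in vehicle against 4.91 CPM in β-NMN lungs, Tnfrsf10b at 7.88 against 3.66 CPM and Tnfrsf13b at 4.31 against 4.78 CPM, none called.

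**Figure D5:**
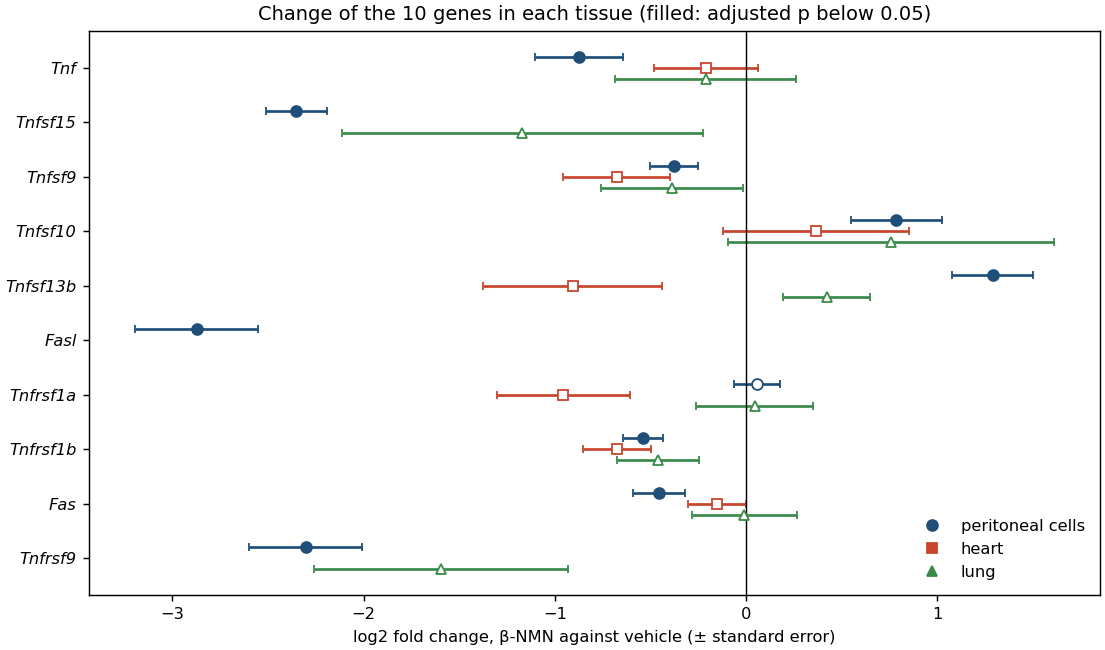
Log2 fold change of each gene (β-NMN against vehicle, ± SE) in peritoneal cells (circles), hearts (squares) and lungs (triangles), with filled symbols for an adjusted p below 0.05. Only peritoneal symbols are filled, and the lung values of Tnfsf15 and Tnfsf10 have the widest errors.

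The organs were compared within mice, averaging over the treatments. CPM in this comparison were scaled over both organs together, so they differ from the CPM and RPKM given within each organ. Tnfsf15 (2.07 against 0.0205 CPM, log2 difference 6.07 ± 0.59, and 5.23 without vehicle replicate 2, with 0 or 1 read in each heart), Tnfrsf9 (1.88 against 0.343 CPM, 2.59 ± 0.32), Tnfsf13b (12.5 against 2.82 CPM, 2.30 ± 0.28), Tnfsf9 (3.15 against 1.21 CPM, 1.39 ± 0.26), Fas (62.4 against 36.2 CPM, 0.77 ± 0.15) and Tnfrsf1b (43.5 against 32.0 CPM, 0.47 ± 0.14) were higher in lungs by edgeR. Thus 6 of 9 genes tested were higher and 0 lower, beside 33.7% and 28.5% of 18318 genes. The call of Tnfrsf1b was lost without any 1 of 5 mice (adjusted p up to 0.0957) and without the low-count filter (0.0929), and held without vehicle replicate 2. Tnf (0.06 ± 0.28), Tnfsf10 (0.42 ± 0.35) and Tnfrsf1a (-0.02 ± 0.31) did not pass the test, and without vehicle replicate 2 Tnfsf10 passed (0.63) and Tnfrsf1a was at 0.23. Leaving out vehicle replicate 1 or β-NMN replicate 2 instead lowered Tnfsf10 to 0.047 and 0.21. With limma-voom, Tnfsf10 (0.82) and Tnfrsf1a (0.27) were both called higher in lungs. Under upper-quartile scaling the median of all genes moved from 0.10 to 0.32 and Tnfrsf1a to 0.20.

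Whether the β-NMN effect differed between heart and lung was tested with an interaction term with the mouse as a block. No gene of the 9 passed, as was so for 0% of 18318 genes by edgeR (498 at an unadjusted p below 0.05, 12 calls by DESeq2 and 4 by limma-voom, none among the 10). The largest difference belonged to Tnfsf13b (1.17 ± 0.55, edgeR adjusted p = 0.948), but without vehicle replicate 2 it was 0.63, below Tnfsf15 (1.19) and Tnfrsf9 (0.92). Leaving out that mouse also moved Tnfsf15 from -0.23, Tnfrsf1a from 0.92 to 0.21 and Tnfsf10 from 0.75 to 0.11, and again 0 genes of the 10 passed. Other mice moved these values too: Tnfsf10 was at 1.46 without vehicle replicate 1, and Tnfrsf1a at 1.43, above Tnfsf13b (1.29), without vehicle replicate 3. Without β-NMN replicate 3, Tnfrsf9 (1.08) was above Tnfsf13b (1.04). With limma-voom, Tnfrsf9 (0.89) and Tnfsf15 (0.84) were above Tnfsf13b (0.58). Peritoneal cells came from other mice and another model, and their effects were not tested against those of the organs.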

How the data were processed

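RNA of 24 samples was sequenced. The authors deposited raw read counts per gene symbol in 2 tables. Per the labels' processing notes, reads were aligned with STAR 2.7.3a to mm10 and counted with featureCounts 2.0.0 (the methods name an earlier STAR release), and the low-count filter, annotation and strand setting are not given in the sources used here. Read layout is stated differently in places. Of 54658 symbols, 54106 were found in GENCODE M21, 106 of them ambiguous.

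From these counts, 1 model per tissue was made in edgeR 4.0.16 and R 4.3.3 (filterByExpr defaults, TMM, estimateDisp, legacy quasi-likelihood F-test). p-values were adjusted over all genes tested and called below 0.05. Organs were compared with the mouse as a block. Log2 CPM used a prior count of 2, and RPKM used union exon lengths. Exact permutation tests were two-sided. The heart of 1 β-NMN mouse carries replicate number 3 in its label, shared with another heart, and was taken as replicate 2, its lung's number. Alternatives were DESeq2 1.42.0, limma-voom 3.58.1, other scalings, no filter, replicate blocks and leaving out libraries. The depth classes were chosen after seeing the data. The tests were checked on simulated counts. Replicates are separate mice.

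The members and lists were chosen with earlier results of these data known. Beside the members and their receptors, at most 4 called genes without overlap were named per list by smallest p, or 1 where none was called, and the genes most like each member, among those whose log2 CPM averaged at least 3.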

Additional observations from a re-analysis of the deposited data

Results flagged for a closer look

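In all, 5 values were flagged among 20 peritoneal groups of 6 mice by Dixon's test at its usual critical value, which chance flags in about 1 in 20 groups. In β-NMN replicate 6, the highest values were Tnf at 3077 CPM (the next at 1541), Tnfsf15 at 22.2 CPM (next 17.8) and Tnfsf10 at 205 CPM (next 144). Fasl was flagged at 11.5 CPM in vehicle replicate 6 (next 5.51) and at 1.23 CPM in β-NMN replicate 4 (next 0.770). Without β-NMN replicate 6, the log2 fold changes were -1.14 for Tnf, -2.40 for Tnfsf15 and 0.68 for Tnfsf10, and without vehicle replicate 6 that of Fasl was -2.54, all still called by edgeR.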

How the results depend on the processing

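The number of the 10 genes called stayed within 1.5 times its value under the alternatives run: 6 to 9 in peritoneal cells (8 to 9 on leaving out a library), 0 in hearts, lungs and the organ difference, and 5 to 8 between organs. Over all genes, the peritoneal count of 7733 calls fell to 4244 among libraries below 70 M reads. With limma-voom, Tnfsf10 in lungs was at 0.072 and Tnfsf13b in hearts at -0.20. Heart calls went from 0 to 262 with DESeq2, 3 with limma-voom and 3 without a filter, and 0 to 5 on leaving out a library. Replicate numbers were not taken to pair the mice, although 5 of 6 hearts correlated best with their own number against 1 of 12 peritoneal samples and 1 of 6 lungs (correlations of same-numbered peritoneal samples from -0.16 to 0.11, hearts 0.08 to 0.21, lungs -0.56 to 0.32), and with a replicate block 9, 0 and 0 genes were called in peritoneal cells, hearts and lungs; without the block between organs 6 were called. Some changes not called in the edgeR model turned sign: Tnfrsf1a in peritoneal cells with limma-voom (-0.060) and below 70 M reads (-0.037), Tnfsf15 in lungs, -1.17 in edgeR, with limma-voom (0.59), Tnfrsf1a in lungs with limma-voom (-0.17), Fas in lungs with upper-quartile factors (0.0090) and without a filter (0.011), and Tnfrsf1a between organs with upper-quartile factors (0.20) and limma-voom (0.27, a call). Leaving out a library gave ranges of -0.036 to 0.98 for Tnfsf10 in hearts, -0.39 to 0.10 for Tnf, -1.63 to 0.75 for Tnfsf15, -0.21 to 0.20 for Tnfrsf1a and -0.16 to 0.18 for Fas in lungs, and -0.090 to 0.22 for Tnf, -0.29 to 0.23 for Tnfrsf1a and 0.047 to 0.63 for Tnfsf10 between organs. The cause was not tested. With 3 mice per organ group and lung depths down to 8915366 reads, changes of genes near 1 CPM could go undetected.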
